A study of Rattus norvegicus with 63 samples.

Results

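Wy-14643 (WY) is a peroxisome proliferator that activates PPAR-alpha, and its effect on liver miRNAs was read here from the 3 rats that received it, set against the 3 vehicle rats of their control set. These 6 samples were chosen by their labels out of 63, and 162 of the 350 rat miRNAs on the array had signal that could be tested. The WY rats (replicates 1 to 3) received 60 mg/kg/day by gastric gavage for 3 days. Their controls, methylcellulose (MC) set 1 (replicates 4 to 6), received the vehicle methylcellulose by gavage and are labelled 14 days, so the labels give the 2 groups different durations, although the study's methods describe time-matched controls. The labels name the vehicle methylcellulose, and the study's methods also name carboxymethyl cellulose for WY. All animals were male Wistar Hanover rats aged 8 to 10 weeks, and total RNA of liver was hybridised to Agilent 1-colour miRNA arrays, 1 sample per array. Per the study's methods, the 3 treated animals of a group were picked among those whose liver showed some change under the microscope, so they do not stand for all dosed rats. Further groups used below are dehydroepiandrosterone (DHEA, 600 mg/kg/day for 14 days, MC set 1), Piperonylbutoxide (PBO, 1200 mg/kg/day for 3 days, MC set 5), Diethylstilbestrol (DES, 10 mg/kg/day for 3 days, MC set 5), Thioacetamid (TAA, 19.2 mg/kg/day for 7 days, MC set 1), Acetamide (AA, 3000 mg/kg/day for 14 days, MC set 1) and the MC sets 2, 5 and 6, which are also labelled 14 days, with 3 rats each.

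PPAR-alpha is a ligand-activated nuclear receptor that, with its partner RXR, switches on genes of fatty acid oxidation in hepatocytes. In rats and mice sustained activation enlarges the liver, multiplies peroxisomes and leads to liver tumours without direct damage to DNA. A miRNA is a short RNA that represses messages matching its seed, the bases 2 to 8, and many lie inside introns of protein genes or in clusters made as 1 transcript. In mice, let-7 miRNAs, which repress the growth regulator Myc, and the miR-17 to miR-92 cluster, which Myc activates, have been placed downstream of PPAR-alpha.

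The mature sequences of the miRNAs on which the results turn are shown so that relatives sharing a seed can be seen together. Of 21 names looked up, 20 matched a mature sequence in RefSeq (assembly GRCr8), and 18 of these miRNAs were called below. Most names on the array carry no arm suffix, so the arm was taken from standard nomenclature. Capitals mark the seed. The first pair lies within pantothenate kinase genes, which make the enzyme that commits pantothenate to coenzyme A. miR-107 lies within Pank1 (chr1:241750431-241750453, minus strand), and the copy of miR-103 that was matched lies within Pank2 (chr3:138963278-138963300, plus strand).
miR-107: aGCAGCAUuguacagggcuauca
miR-103: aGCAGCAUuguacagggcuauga
Counted from the 5′ end, they differ by 1 base, G22C from miR-103 to miR-107.

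The miR-23, miR-27 and miR-24 sequences are shown because all of them fell. miR-23b, miR-27b and a copy of miR-24 lie within 754 bases of the minus strand (chr17:1818672-1819425), inside Aopep, and miR-23a, miR-27a and the other copy of miR-24 within 318 bases (chr19:40859481-40859798, minus strand).
miR-23b: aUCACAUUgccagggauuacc
miR-23a: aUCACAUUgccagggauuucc
miR-27b: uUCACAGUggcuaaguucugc
miR-27a: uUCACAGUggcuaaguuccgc
miR-24: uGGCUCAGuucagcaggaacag
Each pair differs by 1 base (U19A from miR-23a to miR-23b, C19U from miR-27a to miR-27b), and the miR-24 sequence of both clusters is the same, so the array cannot tell its copies apart.

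The miR-101 pair, let-7 members and the cluster within Mcm7 (chr12:22156652-22157123, minus strand), a gene of the DNA replication helicase, are shown for their shared seeds.
miR-101a: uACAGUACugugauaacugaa
miR-101b: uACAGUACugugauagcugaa
let-7b: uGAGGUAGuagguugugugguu
let-7c: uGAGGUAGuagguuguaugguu
let-7f: uGAGGUAGuagauuguauaguu
let-7i: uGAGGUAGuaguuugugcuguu
let-7e: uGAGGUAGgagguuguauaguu
miR-106b: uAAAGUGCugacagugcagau
miR-93: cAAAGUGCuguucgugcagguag
miR-25: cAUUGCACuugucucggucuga
The miR-101 pair differs by A16G and let-7b from let-7c by G17A. How much signal such near-identical miRNAs share on these probes was not tested. 2 further miRNAs that kept their calls against other vehicle rats have seeds that differ from those shown above.
miR-345-5p: uGCUGACCccuaguccagugc
miR-221: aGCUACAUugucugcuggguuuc

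The arrays differ in ways that bear on every comparison. All 3 WY arrays were scanned on the first of 3 scan days, on 1 slide, with a median signal per spot of 233.5 to 243.5. The MC set 1 arrays were scanned later, replicates 5 and 6 on the second day (148.5 and 152) and replicate 4 on the third (78). No slide and no scan day holds both groups. The array files and the submitters' value table also disagree. Over the 71 miRNAs detected on all arrays, each value column named for MC set 1 followed an array filed as MC set 5 (correlation of deviations from the miRNA mean, 0.86 to 0.89) and followed its own array less (0.23 to 0.56). The columns of DHEA and DES followed each other's arrays (0.84 to 0.96), whereas those of WY, PBO and MC set 6 followed their own. The columns of MC set 5 followed arrays filed as MC set 2 (0.86 to 0.91), and those of MC set 2 followed arrays filed as MC set 1 (0.85 to 0.91). Which of the 2 assignments is right cannot be told apart from these files, so the results are given for the arrays as filed, and the other assignment is given beside the main counts and many of the named miRNAs.

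Among the 162 miRNAs, 19 were higher in WY than in MC set 1 (11.7%) and 23 were lower (14.2%; limma, Benjamini-Hochberg adjusted p under 0.05, both called below). In 21 miRNAs (13%) every WY rat lay above every control, and in 29 (17.9%) every WY rat lay below. The differences were small, with 1 exception. Values are log2 of a signal that still contains background, about 7.40 on this scale for the 188 miRNAs never detected, so changes of dim miRNAs are understated. The balance of calls depended on the scaling. Dividing by the 75th percentile of detected miRNAs moved the median difference of all miRNAs from -0.00 to 0.16 and gave 35 higher and 15 lower, and dividing by that of all probes moved it to -0.22 and gave 11 higher and 28 lower. Without WY replicate 3 the counts were 12 and 13, and a fit to these 6 arrays alone gave 3 and 7.

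**Figure D1:**
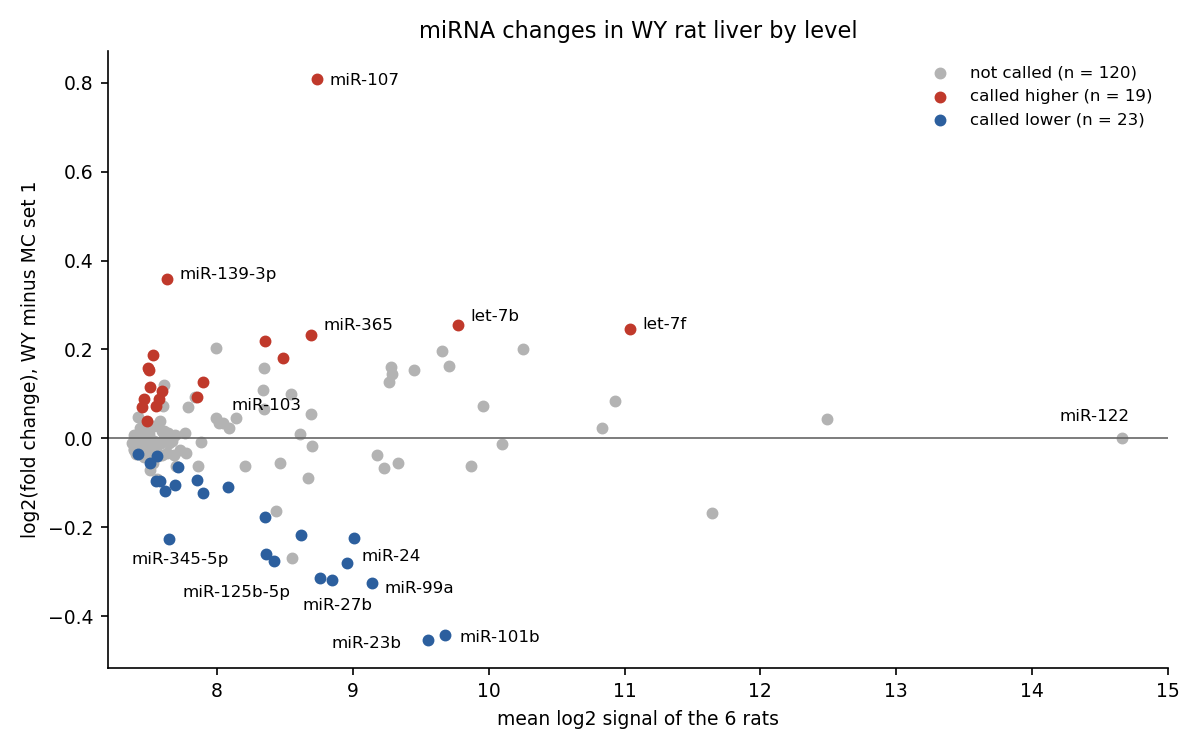
Each point is 1 of 162 miRNAs, with the mean log2 signal of the 3 WY and 3 MC set 1 rats on the horizontal axis and their difference (WY minus MC set 1, log2) on the vertical axis. Red and blue points were called higher (19) and lower (23). miR-107 stands apart at 0.81, and the other calls lie between -0.45 and 0.36.

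With the arrays filed as MC set 5 in place of the controls, 10 miRNAs were higher (6.17%) and 8 lower (4.94%). Against MC set 6, which was scanned on the same day as WY, 23 were higher (14.2%) and 31 lower (19.1%). The MC set 6 arrays were on another slide than WY, with a median signal of 203 to 213. Their quality mark, like that of the arrays filed as DES, was to evaluate, whereas the WY arrays were marked in range. Of the 42 miRNAs called, 9 were called in the same direction against the arrays filed as MC sets 5, 2 and 6, and all of these comparisons use the same WY arrays. The 9 were miR-107 and miR-221, which were higher, and miR-23b, miR-27b, miR-24, miR-101a, miR-101b, miR-345-5p and miR-347, which were lower. The change of miR-347 was -0.095. It was at -0.02 with scan day in the fit and at -0.05 against TAA rats of the same slide (limma adjusted p = 0.78 and 0.29). With slide as a term in the fit, miR-107 alone was called, none was lower, and 18 miRNAs had an unadjusted p under 0.05. Of the groups on the WY slide, only AA had an array on another slide (replicate 3). Here and below, each slide-adjusted difference between WY and groups on other slides rests on that array. The fit with slide is therefore a weak check.

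miR-107 showed the largest change. Its log2 signal was 9.10, 9.19 and 9.13 in the WY rats and 8.37, 8.28 and 8.36 in the controls. The lowest WY rat lay well above the highest control. The log2(fold change) was 0.81 (SE 0.048, 95% interval 0.71 to 0.90), or 1.75-fold, with an adjusted p of 1.15e-18 in limma. Its 2 probes gave 0.80 and 0.82. It was called under each of 20 alternative settings, with values from 0.60 (slide as a term, adjusted p = 0.0029) to 1.60 (75th percentile of detected miRNAs). The change was 1.07 with normexp background correction and 1.59 in the value table. On the WY slide itself, WY exceeded TAA rats by 0.83 and AA rats by 0.73, 2 of whose 3 arrays share that slide.

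miR-103, which shares the seed of miR-107 and differs from it by 1 base, was not called. Its log2 signal was 8.02, 8.05 and 8.02 in WY rats and 8.05, 7.93 and 8.01 in controls, so the groups overlapped. The difference was 0.04 (95% interval -0.02 to 0.09, adjusted p = 0.39). With the 75th percentile of detected miRNAs it was 0.32 (adjusted p = 0.0045), where the median of all miRNAs was 0.16.

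**Figure D2:**
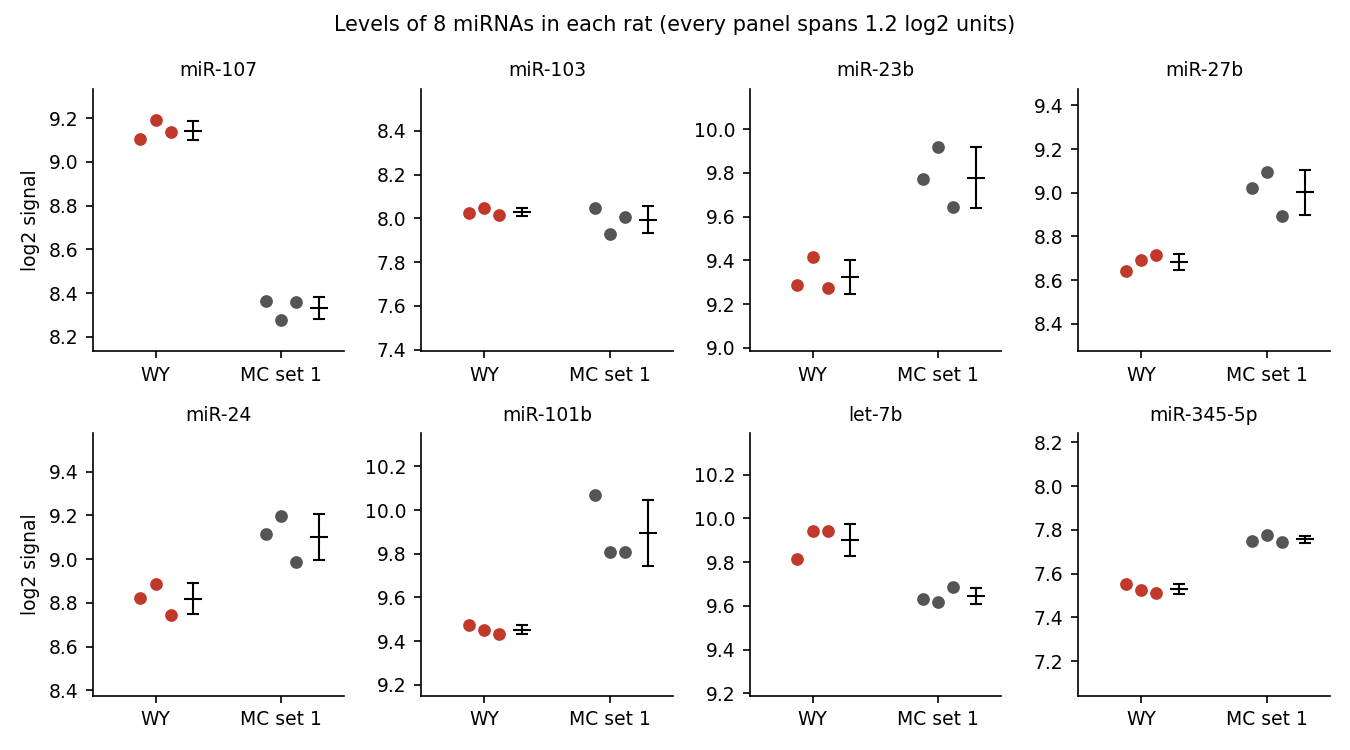
Points give the log2 signal of 8 miRNAs in each of 3 WY rats (red) and 3 MC set 1 rats (grey), and bars give the mean and SD of each group; every panel spans 1.2 log2 units. miR-107 and let-7b lie higher in every WY rat, miR-103 overlaps, and the other 5 lie lower in every WY rat.

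Across the series miR-107 was this high in only 1 other group of arrays. Its 3 arrays filed as DES measured 9.11 to 9.27, overlapping WY, while the other 57 arrays ranged from 8.15 to 8.58 with a median of 8.34. WY and the arrays filed as DES differed by -0.05 (adjusted p = 0.44). These are the arrays that the value table places under DHEA, a steroid that also causes peroxisome proliferation in rats. In the table, miR-107 stood 1.63 above the columns of MC set 1 in DHEA and 1.59 above them in WY; both values share those control columns. Filed as they are, the DHEA arrays measured 8.31 to 8.36, a difference of -0.01 from MC set 1. miR-103 was 0.15 above MC set 1 in the arrays filed as DES (adjusted p = 2.71e-05), and WY lay 0.12 below those arrays (adjusted p = 0.0017).

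**Figure D3:**
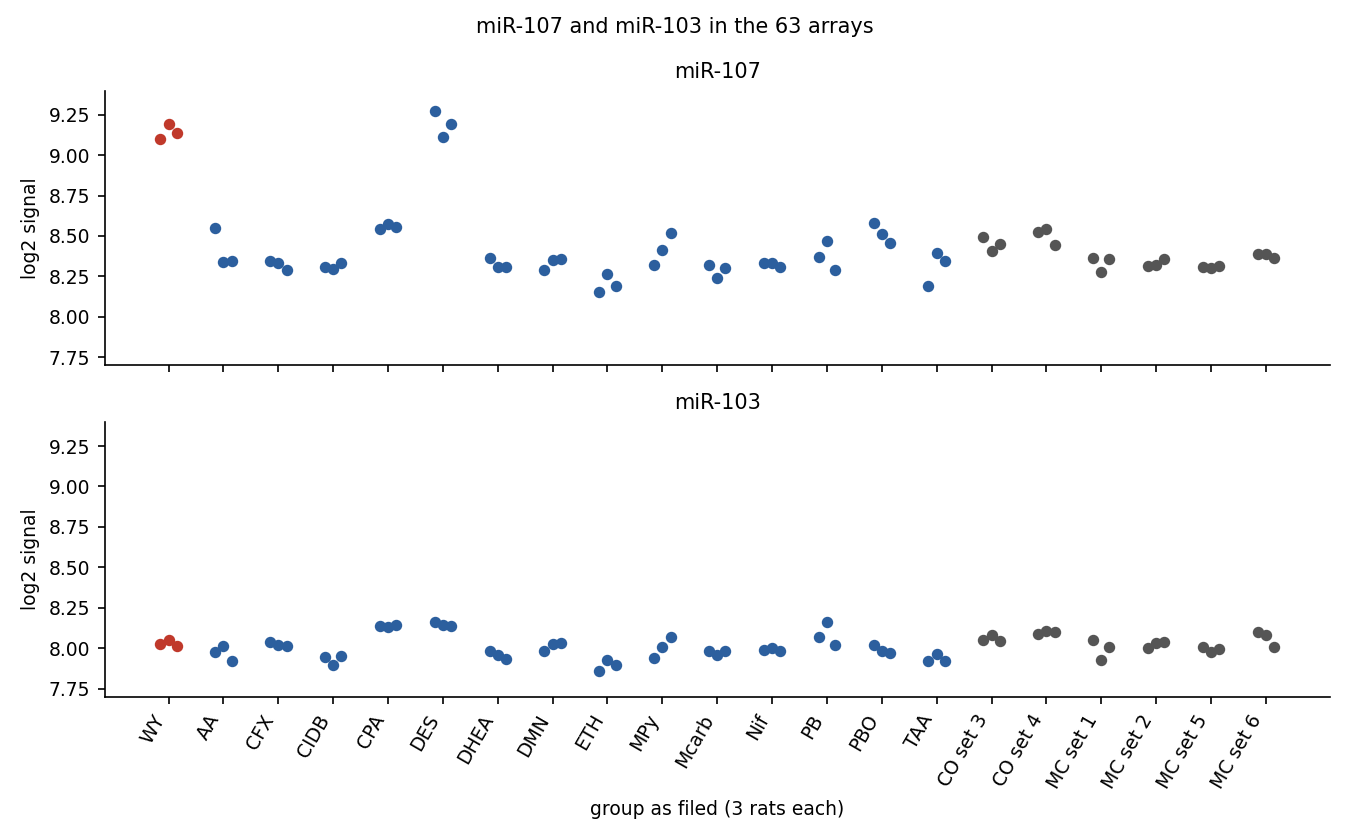
Points give the log2 signal of miR-107 (upper panel) and miR-103 (lower panel) in each of the 63 arrays, by group as filed, 3 rats each: WY in red, other treatments in blue, vehicle sets (CO, corn oil; MC, methylcellulose) in grey. For miR-107 the WY arrays and those filed as DES lie at 9.10 to 9.27 and all others at or below 8.58; miR-103 shows no such gap.

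All 5 listed members of the miR-23, miR-27 and miR-24 clusters were called lower, against 14.2% of all miRNAs, with a median change of -0.28 against -0.00 over all miRNAs. The partner strands miR-23a* and miR-24-2* are not in that list and did not fall alike. miR-23a* was called higher at 0.07 (0.01 and not called against the arrays filed as MC set 5), and miR-24-2* was at -0.00 and not called. miR-23b, known to restrain glutaminase and TGF-beta signalling, was at 9.29, 9.41 and 9.28 in WY rats and at 9.77, 9.92 and 9.64 in controls. No WY rat reached a control, and the change was -0.45 (SE 0.055, adjusted p = 1.40e-08), or 1.37-fold lower. Its mean was the lowest of the 21 groups. The probes gave -0.53 and -0.37. miR-27b, which represses PPAR-gamma, was at 8.64, 8.69 and 8.71 against 9.02, 9.10 and 8.89. Its rats did not overlap either, and it changed by -0.32 (SE 0.064, adjusted p = 2.27e-04). miR-24 was at 8.82, 8.89 and 8.75 against 9.11, 9.20 and 8.99, a change of -0.28 (adjusted p = 5.48e-05).

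Their relatives miR-23a and miR-27a changed by -0.22 and -0.28 (adjusted p = 0.012 and 0.0049). Those 2 calls did not hold against other vehicle rats: miR-23a differed by -0.01 and miR-27a by -0.09 from MC set 6 (adjusted p = 0.96 and 0.40), and by -0.19 each from the arrays filed as MC set 5 (adjusted p = 0.056 and 0.075). miR-23b, miR-27b and miR-24 gave -0.46, -0.28 and -0.25 against the arrays filed as MC set 5 and -0.33, -0.21 and -0.13 against MC set 6, and were called each time. With scan day in the fit miR-24 was at -0.15 and not called (adjusted p = 0.079). Against TAA rats of the same slide, miR-23b, miR-27b and miR-24 differed by -0.23, -0.18 and -0.19 (adjusted p = 0.0016, 0.036 and 0.0054).

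**Figure D4:**
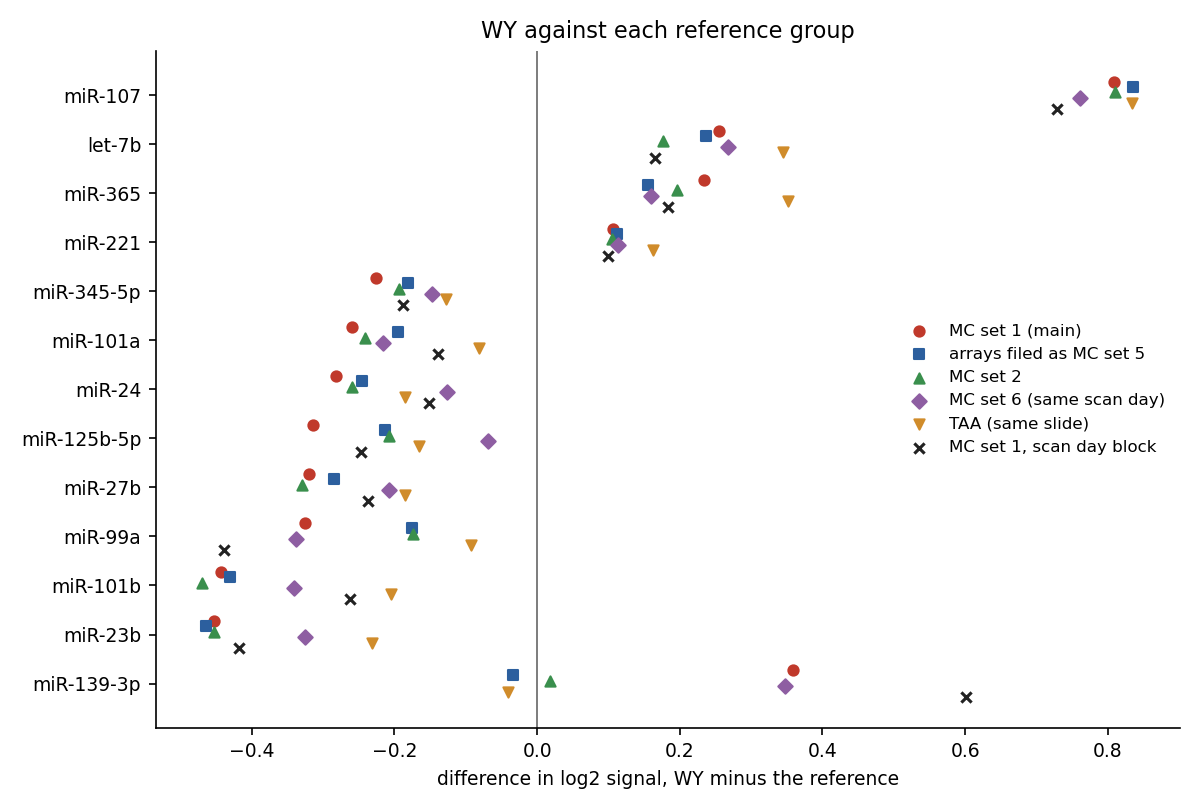
Each symbol gives the difference in log2 signal between the 3 WY rats and a reference for 13 miRNAs: MC set 1 (red circles), arrays filed as MC set 5 (blue squares), MC set 2 (green triangles), MC set 6 (purple diamonds), TAA (orange triangles), and MC set 1 with scan day in the fit (crosses). miR-107 lies between 0.73 and 0.84 throughout, while miR-139-3p lies near 0 against 3 of the references.

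The miR-101 pair, which represses the histone methyltransferase Ezh2, also fell. miR-101b was at 9.48, 9.45 and 9.43 in WY rats and at 10.07, 9.81 and 9.81 in controls. The groups did not overlap, and the change was -0.44 (SE 0.11, adjusted p = 0.0028). miR-101a changed by -0.26 (SE 0.056, adjusted p = 5.73e-04), from 8.43 to 8.55 in controls down to 8.19 to 8.25. Both were called against MC sets 2 and 6 and the arrays filed as MC set 5. With scan day in the fit they gave -0.26 and -0.14 (adjusted p = 0.16 each), and against TAA rats of the same slide -0.20 and -0.08 (adjusted p = 0.23 and 0.34). Their companions in the same list, miR-26a and miR-26b, which also act on Ezh2, differed by -0.01 and -0.06 and were not called.

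miR-345-5p lay near background but separated the groups tightly. Its signal was 7.55, 7.52 and 7.51 in WY rats, of which 1 was well above background by the scanner's mark, and 7.75, 7.78 and 7.74 in controls, all well above it. The change was -0.23 (SE 0.032, adjusted p = 4.31e-07), and -1.05 in the value table. The other arm of that hairpin, miR-345-3p, was called in the opposite direction at 0.19 (adjusted p = 0.012), from 7.42 to 7.46 in controls to 7.47 to 7.74. It was well above background on 2 WY arrays and on no control array, which bounds the change at no less than 1.08-fold. Against the arrays filed as MC set 5 miR-345-3p differed by 0.03 (adjusted p = 0.81), and miR-345-5p by -0.18 (adjusted p = 4.03e-05). From TAA rats of the same slide miR-345-3p differed by -0.01 and miR-345-5p by -0.13 (limma adjusted p = 0.96 and 0.0028).

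miR-221, a growth-promoting miRNA that represses the cell cycle inhibitor p27, was slightly higher. The WY rats were at 7.68, 7.62 and 7.64 and the controls at 7.55, 7.51 and 7.57, without overlap. The change was 0.11 (SE 0.019, adjusted p = 6.76e-05), or 0.82 in the value table, and its mean was the highest of the 21 groups. 2 of the 3 WY arrays and 1 of the 3 control arrays were well above background for it.

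Of the let-7 family, tumour suppressors that repress Myc and Ras messages, 3 of 8 members were called higher (11.7% of all miRNAs were) and 1 lower (14.2% of all), with a median of 0.10. let-7b was at 9.82, 9.94 and 9.94 in WY rats and at 9.63, 9.62 and 9.69 in controls. It rose by 0.26 (SE 0.067, adjusted p = 0.0039), with no overlap, but was not called against MC set 2 (0.18, adjusted p = 0.064) or with scan day in the fit (0.16, adjusted p = 0.21), and it stood at -0.12 with the 75th percentile of all probes, where the median of all miRNAs was -0.22. let-7f rose by 0.25 (adjusted p = 0.0061; adjusted p = 0.051 against the arrays filed as MC set 5), although WY replicate 3 (10.91) lay among the controls (10.85 to 10.98). let-7i rose by 0.18 (adjusted p = 0.012) but stood at -0.03 against MC set 6 and -0.01 with scan day in the fit. let-7e fell by 0.12 (adjusted p = 0.023). let-7c, the member most often linked to PPAR-alpha in mice, was at 9.95, 10.09 and 9.95 against 9.92, 9.87 and 9.97. That difference of 0.07 (95% interval -0.05 to 0.20, adjusted p = 0.42) lay within the overlap of the groups. let-7a, let-7d and miR-98 were at 0.02, 0.13 and 0.01 and were not called.

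The miR-17 to miR-92 cluster, which Myc activates in proliferating cells, was represented by 6 miRNAs, and limma called none of them (0 also at an unadjusted p under 0.05). miR-17, miR-18a, miR-19a, miR-19b, miR-20a and miR-92a differed by 0.02, 0.01, 0.05, -0.05, 0.10 and -0.02, with a median of 0.01. Against MC set 6 the cluster read otherwise: miR-19b, miR-19a and miR-92a were called lower, at -0.41, -0.23 and -0.19 (adjusted p = 3.23e-04, 8.40e-04 and 0.030). The related cluster within Mcm7 was called higher in all 3 members, against 11.7% of all miRNAs. miR-106b, miR-93 and miR-25 rose by 0.13, 0.09 and 0.09 (adjusted p = 0.0021, 2.70e-04 and 0.015), and none of their WY rats overlapped the controls. None of the 3 was called against MC set 6 (-0.01, 0.03 and 0.04) or with scan day in the fit (0.07, 0.06 and 0.06).

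Of 8 tested miRNAs listed for lipid metabolism, miR-107 was called higher and miR-27a, miR-27b and miR-33 lower, against 11.7% and 14.2% of all miRNAs, with a median of 0.02. miR-33, which lies within Srebf2 and restrains cholesterol export, was dim, at 7.46 to 7.49 in WY rats and 7.50 to 7.57 in controls. Its change of -0.05 (adjusted p = 0.013) was 0.00 against the arrays filed as MC set 5. miR-378, which lies within the coactivator gene Ppargc1b, was at 8.37, 8.30 and 8.61 against 8.24, 8.33 and 8.23, a difference of 0.16 (adjusted p = 0.092). It was called higher against the arrays filed as MC set 5, MC set 2 and MC set 6 (0.21, 0.21 and 0.37, adjusted p = 0.040, 0.029 and 1.04e-04), and its partner strand miR-378* was at 0.04 against MC set 1 (adjusted p = 0.21). miR-122, the dominant hepatocyte miRNA, was at 14.67 in all 3 WY rats and 14.66 to 14.67 in controls, near the top of the scale that quantile normalization sets. With scaling by the 75th percentile it gave -0.28, or -0.68 over all probes (adjusted p = 0.042 and 8.87e-04), where the median of all miRNAs moved by 0.16 and -0.22.

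Of the other miRNAs well above background, most that were called were lower. miR-99a and miR-125b-5p changed by -0.33 (SE 0.086, adjusted p = 0.0041) and -0.31 (SE 0.077, adjusted p = 0.0024), and neither was called against the arrays filed as MC set 5 (-0.18 and -0.21, adjusted p = 0.16 and 0.056). miR-10a-5p, miR-151 and miR-210, the last a hypoxia-responsive miRNA, changed by -0.18, -0.11 and -0.12 (adjusted p = 0.016, 0.038 and 0.0028). miR-143, a marker of stellate and smooth muscle cells, changed by -0.22 (adjusted p = 0.0031), from 8.66 to 8.81 in controls down to 8.39 to 8.58. miR-365 rose by 0.23 (SE 0.062, adjusted p = 0.0041) and miR-193, listed with it, was at -0.04 (adjusted p = 0.79). None of miR-10a-5p, miR-151, miR-210, miR-143 and miR-365 was called against the arrays filed as MC set 5. There they differed by -0.09, -0.11, -0.09, -0.16 and 0.155 (limma adjusted p = 0.28, 0.054, 0.051, 0.051 and 0.075). miR-15b was called higher at 0.22 (adjusted p = 0.013), with overlapping rats and a value of -0.02 against MC set 6.

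Several miRNAs called higher were dim in the controls. miR-139-3p was at 7.58, 8.02 and 7.83 in WY rats and at 7.46, 7.44 and 7.46 in controls, well above background on all 3 WY arrays and on no control array. Its change of 0.36 (adjusted p = 0.021, a bound of at least 1.24-fold) became -0.03 against the arrays filed as MC set 5 and 0.02 against MC set 2, and -0.04 against TAA rats of the same slide. miR-320, miR-743a, miR-878 and miR-125a-3p, called higher at 0.09 to 0.16, were well above background on no array of either group. They differed by 0.00, -0.01, -0.01 and -0.01 from TAA rats of the same slide. From the arrays filed as MC set 5 they differed by 0.02, 0.02, 0.01 and 0.00. None was called in either comparison. miR-212 was called at 0.07 (adjusted p = 0.025) and was at -0.06 against MC set 6. The remaining 8 calls (miR-333_v11.0 and miR-23a* higher, miR-30a*, miR-338, miR-140, miR-140*, miR-652 and miR-7a* lower) were changes of -0.10 to 0.07.

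Few markers of other liver cells were called against MC set 1. Of 7 leukocyte miRNAs tested, 2 erythroid, 2 endothelial and 5 of bile duct epithelium, limma called none against MC set 1; at an unadjusted p under 0.05 there was 1 (miR-150, at -0.06), in the leukocyte list. The endothelial marker miR-126 was called lower against MC set 6 and MC set 2 (-0.34 and -0.18, adjusted p = 2.18e-05 and 0.029), and was at -0.07 against MC set 1 (adjusted p = 0.45) and at -0.16 against the arrays filed as MC set 5 (adjusted p = 0.065). Of 4 stellate and smooth muscle miRNAs, miR-143 alone was called against MC set 1. Against MC set 6 all 4 were called lower. There miR-143, miR-199a-3p, miR-199a-5p and miR-214 differed by -0.17, -0.26, -0.06 and -0.06 (limma adjusted p = 0.021, 0.0015, 0.028 and 0.036). None of them was called against the arrays filed as MC set 5. The summed signal of this last list was 925.1 to 990.9 in WY rats and 1009.3 to 1070 in controls, without overlap. That sum still contains background and includes miR-143 (-0.22), while the list had a median change of -0.05. The part of this list in the other changes was not tested. Of the leukocyte miRNAs, 3 were detected in all rats of both groups, and the sums overlapped (1564.8 to 1761.4 against 1644.1 to 1676.3). The hepatocyte markers miR-122, miR-192 and miR-194 were well above background on every array of both groups, in keeping with the labelled tissue. None was called (0.00, 0.08 and 0.16, adjusted p = 0.97, 0.40 and 0.064), although miR-194 was called higher against MC set 6 and the arrays filed as MC set 5 (0.38 and 0.19, adjusted p = 2.18e-05 and 0.049). In tissue RNA, fewer cells of a type and less RNA per cell cannot be told apart. Not called against MC set 1 either were miR-21 (0.04), miR-34a (0.09), miR-29a, miR-29b and miR-29c (0.20, 0.20 and 0.15), miR-195 and miR-497 (-0.27 and -0.16), and the 5 tested members of the miR-30 family (-0.06 to 0.11). Against MC set 6, miR-29b, miR-30b-5p, miR-30c and miR-30e were called higher (0.35, 0.23, 0.14 and 0.20, limma adjusted p = 0.038, 0.0052, 0.014 and 3.02e-04). With scan day in the fit miR-30d was called higher (0.24, adjusted p = 0.024). The arrays filed as MC set 5 gave no call for any of these miR-29 and miR-30 members. miR-195 and miR-497 were called lower against MC set 6 (-0.47 and -0.35, adjusted p = 6.88e-04 and 0.0030) and with scan day in the fit (-0.48 and -0.31, adjusted p = 0.0055 and 0.045), and miR-497 also against the arrays filed as MC set 5 (-0.28, adjusted p = 0.038) and in the value table (-0.59, adjusted p = 0.034).

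WY and DHEA share MC set 1 and a common description as peroxisome proliferators, but differ in duration, so their rats were compared directly. As filed, 17 miRNAs were higher in WY than in DHEA (10.5%) and 28 lower (17.3%), with 10 and 16 when WY replicate 3 was left out and 14 lower without DHEA replicate 2. miR-107 was 0.82 higher (SE 0.048, adjusted p = 8.02e-19), and let-7b, miR-192 and miR-99a were 0.47, 0.45 and 0.39 higher (adjusted p = 3.73e-07, 1.32e-06 and 4.29e-04). miR-193 and miR-365 were 1.14 and 0.89 lower in WY as differences in log2 signal, since DHEA rats reached 10.18 to 10.47 and 9.65 to 9.78 where WY rats were at 9.11 to 9.20 and 8.76 to 8.84. miR-29b and miR-23b were -0.68 and -0.35 (adjusted p = 9.74e-05 and 1.32e-06). No slide or scan day holds both groups. With slide in the fit let-7b, miR-99a, miR-29b and miR-23b lost their calls (0.31, 0.44, -0.60 and -0.29, adjusted p = 0.29, 0.25, 0.32 and 0.25), and with scan day miR-99a lost its call (0.25, adjusted p = 0.14). Under the assignment of the value table, with the arrays filed as DES standing for DHEA, 21 miRNAs were higher in WY (13%) and 26 lower (16%). Of the 8 named, miR-23b was then called in the same direction (-0.25, adjusted p = 0.0011) and miR-192 in the opposite one (-0.21, adjusted p = 0.017). The other 6 were not called, with miR-193 at 0.15 and miR-365 at -0.10. miR-345-5p was 0.26 lower in WY than in the arrays filed as DHEA (adjusted p = 9.40e-09) and at -0.00 against those filed as DES (adjusted p = 0.98).

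PBO was given for the same 3 days as WY, and the change from the control set of each compound was compared between them. For 6 miRNAs the change was higher in WY (3.7%) and for 7 it was lower (4.32%). The first count was 2 without WY replicate 3 or PBO replicate 2, 3 without MC set 1 replicate 5 or MC set 5 replicate 9, and 10 to 13 without WY replicate 1, PBO replicate 3 or MC set 5 replicate 7. The second was 4 without MC set 1 replicate 5. The change of miR-107 was 0.60 larger in WY (SE 0.067, adjusted p = 3.46e-09), since PBO rats, at 8.58, 8.51 and 8.46, stood 0.21 above MC set 5 (adjusted p = 0.0018). miR-200b, an epithelial miRNA, was at 8.19, 8.46 and 8.69 in PBO rats and 7.72 to 7.81 in MC set 5, but overlapped the controls in WY, so that the changes differed by -0.76 (SE 0.13, adjusted p = 5.05e-05). miR-200a, its cluster neighbour, differed by -0.35, miR-29b by -0.58 and miR-345-5p by -0.27 (adjusted p = 3.78e-04, 0.041 and 2.31e-05). In the other direction miR-192, let-7b and miR-194 differed by 0.32, 0.31 and 0.30 (adjusted p = 0.030, 0.030 and 0.033). Under the value table's assignment, where arrays filed as MC sets 5 and 2 stand for MC sets 1 and 5, miR-29b was at -0.40 and not called (adjusted p = 0.26), and the other 7 named kept their calls. With scan day in the fit miR-192 and let-7b were not called (0.25 and 0.22, adjusted p = 0.17 and 0.22). With slide in the fit none of the 13 was called, and miR-107 differed by 0.39 (adjusted p = 0.19), with 22 miRNAs at an unadjusted p under 0.05.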

How the data were processed

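Per the labels and the study's methods, liver RNA was hybridised to Agilent 1-colour rat miRNA arrays and read with Feature Extraction 10.7.3.1. The deposited array files hold, per spot, mean and local background intensity, which the authors did not normalize there, with flags. The authors' value table holds log2 values of 135 miRNAs, made with a variant of RMA without background correction. Its version is not given in the sources used here. All 63 arrays (21 groups of 3) were processed alike. Mean signals of 7000 spots (938 probes, 350 miRNAs) were taken without background correction, flagged spots were left out, and the arrays were quantile normalized. Spots were averaged per probe, log2 transformed and summarized per miRNA by median polish. The 162 miRNAs detected on at least 1 array were tested. limma 3.58.1 in R 4.3.3 was fitted over all groups, with Benjamini-Hochberg adjustment over the 162 and calls at 0.05. A miRNA was well above background where most spots of a probe carried the scanner's mark. Where that held on no array of a group, a fold is a bound, the bright group's mean against the dim group's mean with each array raised to its lowest signal of a miRNA well above background. The number of arrays limits the precision. In a simulation of the WY contrast, 40 of 162 miRNAs were shifted by 1 log2 unit. The fit found 40 of them among 41 calls. The largest change measured in WY against MC set 1 was 0.81, so the simulation does not show how well smaller changes are found. Its values also held no slide or scan day effect.

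Named miRNAs were the 15 called higher and 15 called lower with the largest change whose rats did not overlap, all tested members of 4 lists and the cell type markers, and up to 4 of each other list; for the comparisons with DHEA and PBO, the 4 largest each way. miR-347 and the 8 remaining calls were named after their values were seen. The members and lists were chosen with earlier results of these data known. Alternatives were the value table, its assignment of arrays, other vehicle rats, background correction, scaling, detection filters, slide or scan day as a block, and leaving out each rat. Same-numbered WY and DHEA rats did not deviate together (correlations -0.06, -0.08 and -0.10), so numbers were not taken as pairs.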

Additional observations from a re-analysis of the deposited data

How the results depend on the processing

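Counts are given as higher and lower. For WY against MC set 1 (19 and 23), the value table gave 6 and 9, the arrays assigned as there 10 and 8, slide as a fixed term 1 and 0 (18 at an unadjusted p under 0.05) and as a random term 14 and 15, scan day 14 and 15, the 75th percentile of detected miRNAs 35 and 15 and of all probes 11 and 28, only the groups compared 3 and 7, and MC set 2 11 and 16. Leaving out 1 rat gave 12 to 21 and 13 to 25, and kept 24 to 39 of the 42 calls. The calls lost without 1 rat included miR-23a, miR-27a, let-7e, let-7f, let-7i, miR-143 and miR-139-3p, while miR-107, miR-23b, miR-27b, miR-24, miR-101a, miR-101b, miR-345-5p and miR-221 kept theirs. For WY against DHEA (17 and 28), slide gave 12 and 6 as a fixed and 13 and 18 as a random term, and leaving out 1 rat 10 to 19 and 14 to 27. For WY against PBO (6 and 7), slide gave 0 and 0, scan day 11 and 6, the values deposited as a table gave 8 and 4, and leaving out 1 rat 2 to 13 and 4 to 9. No paired analysis was possible because WY and MC set 1 share no replicate numbers. For WY against DHEA, a fit to the treated rats of all compounds with a replicate block gave 13 and 24. The same arrays without the block gave the same counts. Direction was compared where a value was called in either fit; leaving out 1 rat turned none of the 42 calls. It turned for miR-139-3p in the value table (-0.014) and in its assignment (-0.034), for miR-33 in that assignment (0.0021), and with the 75th percentile for let-7b (-0.12), let-7f (-0.23) and miR-122 (-0.68) over all probes, and miR-122 (-0.28) and miR-193* (0.45) over detected miRNAs. It turned with slide for let-7i (-0.057), miR-106b (-0.033), miR-93 (-0.020) and miR-140* (0.010), with scan day for let-7i (-0.015), for miR-203 against all MC rats (0.036) and MC set 2 (0.048), and against MC set 6 for let-7i (-0.025), miR-106b (-0.0053), miR-212 (-0.060), miR-15b (-0.018), miR-19a (-0.23), miR-16 (-0.28), miR-193 (0.33), miR-140* (0.0016), miR-409-3p (0.11), miR-664 (0.061), miR-30c (0.14), miR-203 (0.058) and miR-196c (-0.064). The cause was not tested. The other vehicle sets and the fit without a block were chosen after seeing the data. Signal over background limits the values near 7.40.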
